A study of Mus musculus with 9 samples.

Results

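Major histocompatibility complex (MHC) class I presentation was followed in the mouse sublingual gland, a mucus-secreting salivary gland, after irradiation. The 10 genes were taken from a list by symbol: the class I heavy chains H2-K1, H2-D1 and H2-Q7 with their light chain B2m, the peptide transporter subunits Tap1 and Tap2 with the loading factor Tapbp, the immunoproteasome subunits Psmb8 and Psmb9, and the transactivator Nlrc5. All 10 were found among the 54532 gene identifiers of the count files, and all 10 passed the filter on low counts that 15348 genes passed. The libraries came from glands taken 14 days after 10 Gy radiation, 7 days after 10 Gy radiation, and from glands that received no radiation (controls), with 3 libraries a group. The labels give the single control group no day, so time after radiation cannot be told apart from age or day of collection. Every library was labelled WT, and RNA came from 4 sections of 50 µm of each gland, so each library holds the RNA of all cell types in the sections. Strain, sex, age, and whether the 3 libraries of a group came from separate animals are not stated in the labels, and the spread that p-values measure here may be technical.

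Class I molecules carry peptides cut from proteins made inside the cell to its surface, where CD8 T cells and natural killer cells read them. The proteasome cuts the peptides, the Tap1-Tap2 transporter moves them into the endoplasmic reticulum, tapasin (Tapbp) holds the transporter beside the empty class I molecule, and the heavy chain folds with beta-2-microglobulin (B2m) around the peptide. Interferon-gamma is known to induce the whole pathway, in part by exchanging catalytic proteasome subunits for Psmb8, Psmb9 and Psmb10 and in part through NLRC5, which is recruited to class I promoters by factors bound at their X and Y boxes.

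Of the 10 genes, 8 lie on chromosome 17 of the mm10 build, where the mouse MHC maps. H2-K1 spans 33996017 to 34000347 on the minus strand, H2-D1 35262730 to 35267499 and H2-Q7 35439155 to 35443773, both on the plus strand. Psmb9 (34181987 to 34187764, minus strand), Tap1 (34187553 to 34197225, plus strand), Psmb8 (34197721 to 34201454, plus strand) and Tap2 (34203527 to 34216321, plus strand) follow each other in a row, and Tapbp lies at 33915899 to 33929292 on the plus strand. B2m is on chromosome 2 at 122147686 to 122153083 and Nlrc5 on chromosome 8 at 94434356 to 94527272, both on the plus strand. Exons of Tap1 and Psmb9 overlap over 212 bases on opposite strands. The sources used here do not give whether reads were counted by strand, so reads of that stretch cannot be assigned to either gene. The same holds for exons that Tapbp shares with Gm19412 over 904 bases, that Tap2 shares with Gm15821 over 533 bases and that Psmb8 shares with Gm20496 over 498 bases.

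Promoter sequences were matched by symbol for 8 of the 10 genes in RefSeq's GRCm38.p6 windows, which run from 250 bases before the annotated start to 50 bases after it. Tap2 and Nlrc5 were not matched, and of the 2 windows given for H2-K1 the first listed was used. The stretches that hold the known control elements of the class I genes and of B2m are shown because these 4 were among the 7 genes called higher at day 14 than at day 7. Tapbp was another of the 7, and its window held 2 matches to the Y box and no match to the other elements. Psmb8 had the same calls as H2-K1, H2-D1 and H2-Q7, and its window held no match to these elements. Capitals mark letters matching an NF-kB site (GGGA, any 4 bases, CC), an interferon-stimulated response element (GAA or GAAA, any 2 bases, GAAA), TGACG (the core of the X2 box) and CCAAT (the Y box), each searched on both strands, so that TTTCACTTC and ATTGG are reverse matches and GGGGATTCCCC holds 2 overlapping NF-kB matches. Each line reads 5′ to 3′ on the strand of the gene.
H2-K1, chr17:34000325-34000468, minus strand: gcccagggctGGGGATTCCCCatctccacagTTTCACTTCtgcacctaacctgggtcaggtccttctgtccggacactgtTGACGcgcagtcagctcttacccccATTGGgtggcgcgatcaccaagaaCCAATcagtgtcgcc
H2-D1, chr17:35262913-35263055, plus strand: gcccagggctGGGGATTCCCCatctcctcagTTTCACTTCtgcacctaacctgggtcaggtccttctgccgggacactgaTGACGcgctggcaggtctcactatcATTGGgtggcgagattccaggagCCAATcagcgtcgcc
H2-Q7, chr17:35439012-35439153, plus strand: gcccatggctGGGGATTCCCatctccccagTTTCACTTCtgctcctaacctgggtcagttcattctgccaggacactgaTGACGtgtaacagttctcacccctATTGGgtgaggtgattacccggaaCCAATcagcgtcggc
B2m, chr2:122147538-122147648, plus strand: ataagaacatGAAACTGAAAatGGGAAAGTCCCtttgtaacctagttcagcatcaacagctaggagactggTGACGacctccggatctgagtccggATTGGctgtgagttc

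The 3 heavy chain stretches were close copies of each other. H2-K1 and H2-D1 were identical at 88.2% of aligned positions, H2-D1 and H2-Q7 at 84.0%, and H2-K1 and H2-Q7 at 83.3%. B2m held the same kinds of element in another order, with the interferon-stimulated element before the NF-kB site. In all 4 promoters the later of these 2 elements began 49 bases before TGACG, and TGACG began 24 bases before ATTGG in H2-Q7 and 25 bases before it in the other 3. The element with GAA in front and this spacing were searched for after the sequences had been seen.

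Single motifs of this length are common. CCAAT was found in 37.4% of the 32851 windows, TGACG in 20.8%, the NF-kB pattern in 20.7%, the interferon-stimulated element with GAA in front in 7.52% and that with GAAA in front in 3.44%. Among the 8 members, CCAAT was in 7 windows, TGACG in 6, the NF-kB pattern in 4, the element with GAA in front in 3 and that with GAAA in front in 1. A gamma-activated site (TTC, any 3 bases, GAA) was in 1 member (Psmb8) and in 8.3% of all windows. TGACG placed 24 or 25 bases before ATTGG on the same strand was found in 43 windows (0.131%), which belong to 38 genes, among them H2-K1, H2-D1, H2-Q7, B2m and the class I-like gene H2-M3. A match is a run of letters and not evidence of binding.

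Tap1 and Psmb9 are divergent neighbours whose promoter windows share 275 bases. The part of the shared bases around their CCAAT and TGACG matches, which are in capitals, is shown on the strand of Tap1 because it lies in both genes' windows.
Tap1 and Psmb9, chr17:34187324-34187484, plus strand: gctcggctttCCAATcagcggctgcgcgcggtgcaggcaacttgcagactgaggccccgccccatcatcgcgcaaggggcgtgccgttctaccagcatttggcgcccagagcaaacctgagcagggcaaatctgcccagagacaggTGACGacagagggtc

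The libraries held 15962399 to 19441239 counts assigned to genes. Control replicate 3 stood apart from the other controls: the chi-square per degree of freedom over genes was 137.595 and 96.174 against them, compared with 15.865 between those 2 and 9.927 to 31.316 within the irradiated groups. The calls of the 10 genes and of some lists against controls are therefore also given without it. The tests of ratios between proteasome subunits are given only with it. The tissue label was met by its markers: 9 genes of mucous acinar cells, Muc19 and Dcpp1 among them, summed to 191990 to 198845 CPM (counts scaled by TMM to the library total) at day 14, 149901 to 158409 at day 7 and 195063 to 280277 in controls. Log2 fold changes across all genes followed exon length, with Spearman's rho of 0.423 in the day 7 to control comparison, 0.336 in that of day 14 to control and -0.283 between the 2 times, genes not being independent replicates. Calls were therefore also made after a correction of every library for length and GC content, after which rho was within 0.047 of 0. Among all genes called at an adjusted p under 0.05, 51.6% were the higher ones for day 7 over control, 64.1% for day 14 over control and 56.5% for day 14 over day 7. With scaling factors computed without the 20 most abundant genes these shares were 62.8%, 76.9% and 42.4%.

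Transcript levels per exon length, in CPM per kilobase, ordered the 10 genes much the same way in the 3 groups. Exon length here joins the exons of all transcripts of a gene, and the order between genes depends on this choice. H2-Q7 has 4265 such bases and 1523 in its longest protein-coding transcript, Psmb9 3660 and 1352, and B2m 860 and 860. No other length was tried. The MHC haplotype of the mice is not stated, and reads of a haplotype other than that of the reference genome can be missed, so the levels of the H2 genes relative to other genes hold only for reads that matched the reference. H2-K1 was the highest, with 292 ± 25.9 at day 14, 196 ± 2.42 at day 7 and 259 ± 17.8 in controls (SD, n = 3 each). H2-D1 came next with 225 ± 15.0, 154 ± 2.05 and 204 ± 7.01 CPM per kilobase in the same order of groups. B2m stood at 221 ± 31.1 at day 14, where its libraries overlapped those of H2-D1, at 90.0 ± 17.9 at day 7 and at 127 ± 21.2 in controls, where they lay below it. Tapbp, Tap2 and Tap1 followed in that order, with Tapbp at 38.7 ± 3.37, 30.6 ± 1.45 and 35.6 ± 2.16 CPM per kilobase. Psmb8, Psmb9 and H2-Q7 could not be ordered, since neighbours among them overlapped in every group, and at day 14 H2-Q7 also overlapped Tap1. Nlrc5 was the lowest, at 0.717 ± 0.252 CPM per kilobase at day 14, 0.296 ± 0.0674 at day 7 and 0.289 ± 0.134 in controls.

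**Figure D1:**
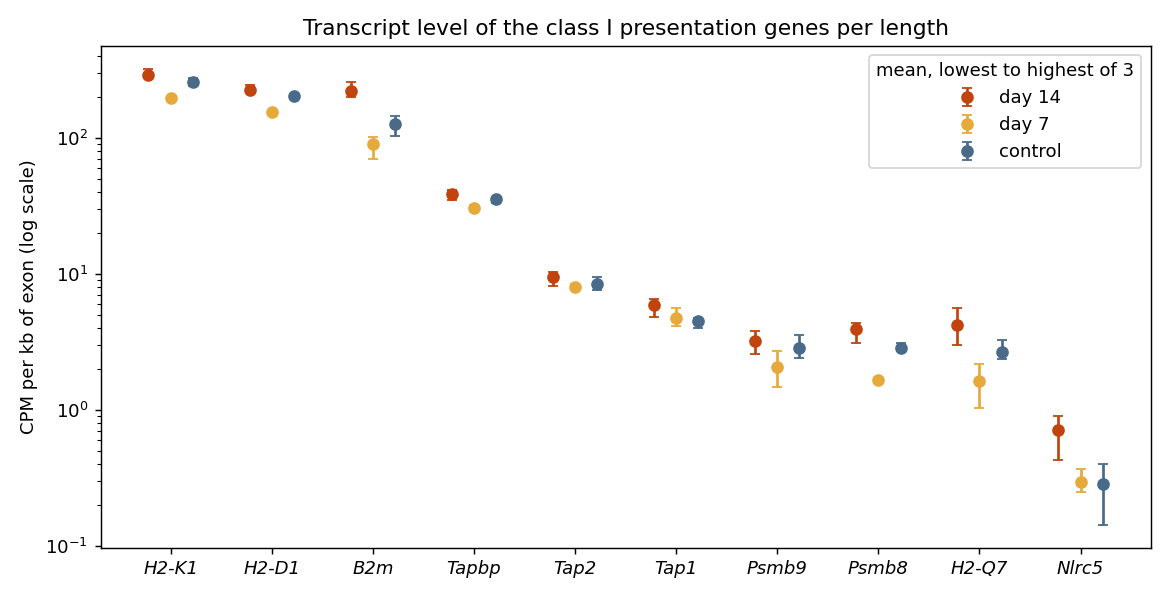
Mean CPM per kilobase of exon of each gene (points, log axis) with bars from the lowest to the highest of 3 libraries, for day 14, day 7 and control. H2-K1, H2-D1 and B2m lie at 69.4 CPM per kilobase or above in every library, and Nlrc5 lies at 0.908 or below.

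At day 7 against controls, 5 of the 10 genes fell: H2-K1, H2-D1, H2-Q7, B2m and Psmb8. Over all genes tested, 14.8% were called lower. After the length and GC correction only Psmb8 stayed called lower, where 11.1% of all genes were. None of the 10 was called higher in edgeR's test, where 15.8% of all genes were, nor at an unadjusted p under 0.05, nor by DESeq2 or limma-voom. Their median log2 fold change was -0.40, against 0.02 over all genes tested. At day 14 only B2m exceeded controls by the test, where 1.13% of all genes did. Against their day 7 level 7 genes were higher, where 3.72% of all genes were: the same 5 with Tapbp and Nlrc5. In bulk RNA, fewer cells of a type and less RNA per cell cannot be told apart.

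H2-K1, a classical class I heavy chain, had 946, 808 and 822 CPM in the day 14 libraries, 568, 578 and 582 CPM at day 7 and 809, 769 and 705 CPM in controls. The day 7 libraries were tightly grouped and lay below every other library, while day 14 and control overlapped. Its log2 fold change was -0.40 (SE 0.0905, adjusted p = 0.00264) for day 7 over control and 0.58 (SE 0.0906, adjusted p = 0.000931) for day 14 over day 7. For day 14 over control it was 0.17 (SE 0.0903, adjusted p = 0.277).

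H2-D1, the second classical heavy chain, had 625, 556 and 562 CPM at day 14, 402, 392 and 401 CPM at day 7 and 543, 525 and 507 CPM in controls. No 2 groups overlapped: day 7 was lowest and day 14 highest. It fell by 0.40 (log2, SE 0.0848, adjusted p = 0.00174) at day 7 against control and rose by 0.54 (SE 0.0849, adjusted p = 0.000829) at day 14 against day 7. The day 14 difference from control, 0.15 (SE 0.0846), did not pass the test (adjusted p = 0.331).

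H2-Q7 encodes a Qa-2 heavy chain, a non-classical class I molecule. It had 23.9, 12.8 and 17.3 CPM at day 14, 7.17, 4.45 and 9.24 CPM at day 7 and 10.1, 10.5 and 14.0 CPM in controls. Day 7 lay below both other groups, and day 14 overlapped controls through its second library. Its log2 fold change was -0.73 (SE 0.263, adjusted p = 0.0483) at day 7 against control and 1.37 (SE 0.26, adjusted p = 0.0072) at day 14 against day 7. Of the 50-base stretches of its transcript, 34.9% also occur in other genes' transcripts, H2-Q6 above all, so its counts are uncertain. H2-Q6 itself had 19.4, 9.88 and 13.4 CPM at day 14, 7.17, 4.23 and 6.34 CPM at day 7 and 7.93, 8.97 and 11.7 CPM in controls.

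B2m, the light chain that every class I heavy chain needs, had 221, 177 and 172 CPM at day 14, 87.1, 59.7 and 85.4 CPM at day 7 and 89.0, 115 and 124 CPM in controls. The 3 groups were apart, though the highest day 7 library and the lowest control differed by little. B2m fell by 0.50 (log2, SE 0.158, adjusted p = 0.0295) at day 7 against control. It rose by 0.80 (SE 0.157, adjusted p = 0.0335) at day 14 against control and by 1.30 (SE 0.159, adjusted p = 0.000589) at day 14 against day 7. B2m shared no 50-base stretch with another gene's transcript.

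**Figure D2:**
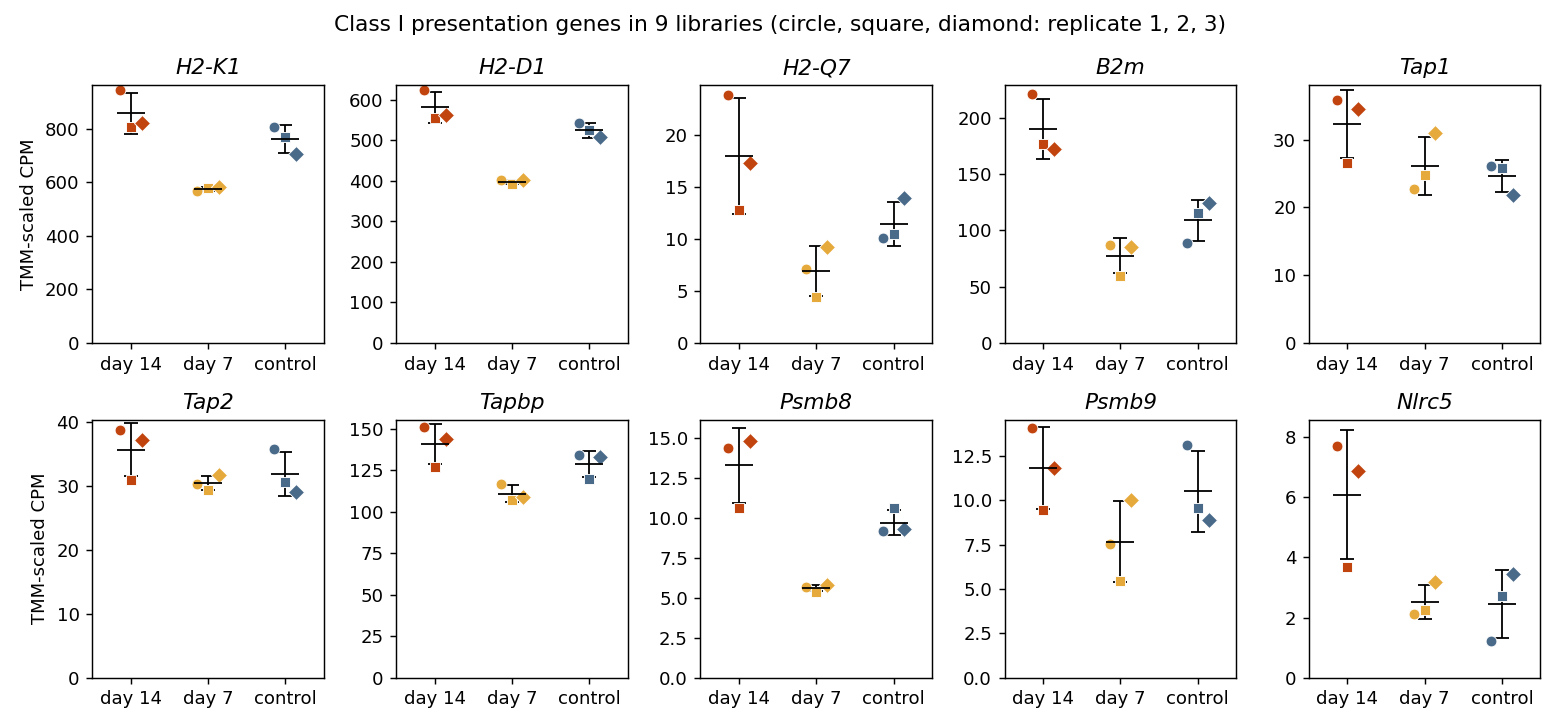
TMM-scaled CPM of each gene (vertical axes from 0) in the 3 libraries of day 14, day 7 and control, with the mean and SD in black. H2-K1, H2-D1, H2-Q7, B2m, Tapbp and Psmb8 have every day 7 library below every library of both other groups.

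The peptide transporter subunits varied less. Tap1 had 35.8, 26.6 and 34.5 CPM at day 14, 22.7, 24.7 and 30.9 CPM at day 7 and 26.1, 25.8 and 21.8 CPM in controls. Its day 14 libraries all exceeded the controls, but the log2 difference of 0.39 (SE 0.144) did not pass the test (adjusted p = 0.127). Tap2 had 38.8, 31.0 and 37.3 CPM at day 14, 30.4, 29.4 and 31.8 CPM at day 7 and 35.8, 30.6 and 29.1 CPM in controls, and its groups overlapped in every comparison. Its log2 fold changes were -0.06 for day 7 over control, 0.16 for day 14 over control and 0.22 for day 14 over day 7, each with an SE of 0.12 and none past the test.

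Tapbp, which encodes tapasin, had 151, 127 and 144 CPM at day 14, 117, 107 and 109 CPM at day 7 and 134, 120 and 133 CPM in controls. Day 7 lay below both other groups. It rose by 0.34 (log2, SE 0.0917, adjusted p = 0.0314) at day 14 against day 7, whereas the difference of day 7 from control, -0.22 (SE 0.0918), missed the threshold (adjusted p = 0.0743). The rise at day 14 against day 7 lost its call when any of day 7 replicates 1 to 3, control replicate 2 or day 14 replicate 1 or 3 was left out. It was also lost with scaling without the 20 most abundant genes.

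Psmb8, the inducible subunit that takes the place of Psmb5, had 14.4, 10.6 and 14.8 CPM at day 14, 5.65, 5.38 and 5.80 CPM at day 7 and 9.21, 10.6 and 9.33 CPM in controls. The day 7 libraries were again tightly grouped below all others. Psmb8 fell by 0.79 (log2, SE 0.182, adjusted p = 0.00313) at day 7 against control and rose by 1.24 (SE 0.18, adjusted p = 0.000463) at day 14 against day 7. Psmb9, which takes the place of Psmb6, had 14.1, 9.45 and 11.8 CPM at day 14, 7.55, 5.44 and 10.0 CPM at day 7 and 13.1, 9.58 and 8.88 CPM in controls. Its groups overlapped throughout, and its log2 fold change of 0.62 (SE 0.223) at day 14 against day 7 did not pass the test (adjusted p = 0.1). It passed in limma-voom (adjusted p = 0.0283) and without the filter on low counts, and not in DESeq2.

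Nlrc5, the transactivator of class I genes, was counted 132, 69 and 127 times at day 14, 39, 41 and 59 times at day 7 and 20, 40 and 61 times in controls. This gave 7.71, 3.67 and 6.88 CPM at day 14, 2.12, 2.25 and 3.17 CPM at day 7 and 1.22, 2.70 and 3.45 CPM in controls. Every day 14 library exceeded every other library, and day 7 and control overlapped. Nlrc5 rose by 1.27 (log2, SE 0.353, adjusted p = 0.0371) at day 14 against day 7. Over control, the log2 difference of day 14 was 1.30 (SE 0.356, adjusted p = 0.0622), which passed in DESeq2 and limma-voom. The rise at day 14 against day 7 lost its call in the same 6 fits with a library left out as that of Tapbp. At day 7 against control the log2 difference was 0.03 (SE 0.366, adjusted p = 0.961), and with so few counts a decrease of the size seen for the heavy chains was not detectable.

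Read across libraries, 6 of the 10 genes had all day 7 libraries below all controls, where 21.7% of all genes did. All day 14 libraries lay above all controls for 4 genes (H2-D1, B2m, Tap1 and Nlrc5), where 12.4% of all genes did. All day 14 libraries lay above all day 7 libraries for 7 genes, where 15.9% of all genes did. By the test, 1 of 10 was called higher at day 14 against control, where 1.13% of all genes were, and 7 of 10 at day 14 against day 7, where 3.72% were. The medians of the 10 genes were 0.28 and 0.60 on the log2 scale in these comparisons, against 0.01 and 0.00 over all genes tested. None was called lower in either comparison, where 0.632% and 2.87% of all genes were, also at an unadjusted p under 0.05 and in DESeq2 and limma-voom. All 3 comparisons share libraries, so their counts are not independent of each other.

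Correcting for length and GC content together changed the day 7 calls, and the part of each was not tested. The shortest of the 10 genes was B2m, with 860 exon bases (4.68% of tested genes are shorter), and the longest was Nlrc5, with 8493 (86.3% are shorter). After the correction only Psmb8 stayed called lower at day 7, with a log2 fold change of -0.63 (SE 0.177, adjusted p = 0.0143), where 11.1% of all genes were called lower. H2-K1 was then at -0.18 (SE 0.0757, adjusted p = 0.0918), H2-D1 at -0.16 (SE 0.0757, adjusted p = 0.149), H2-Q7 at -0.65 (SE 0.277, adjusted p = 0.126) and B2m at -0.46 (SE 0.153, adjusted p = 0.056). The rise at day 14 against day 7 held for the same 7 genes after the correction, where 4.21% of all genes were called higher, with log2 fold changes of 0.31 for Tapbp to 1.37 for H2-Q7 (2.62% of all genes were called lower). Set against control after it, day 14 B2m was at 0.73 (adjusted p = 0.0572), and H2-K1, at 0.33 (adjusted p = 0.0461), was the member called, where 0.496% of all genes were called higher and 0.287% lower.

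Without control replicate 3, 3 genes were called lower at day 7: H2-K1 at -0.47, H2-D1 at -0.44 and Psmb8 at -0.84 on the log2 scale. H2-Q7 was then at -0.58 (adjusted p = 0.142) and B2m at -0.42 (adjusted p = 0.088). Leaving out control replicate 2 or day 7 replicate 2 also left these 3. At day 14 against control, B2m at 0.86 (adjusted p = 0.0116) and Nlrc5 at 1.61 (adjusted p = 0.0131) were called higher without control replicate 3, and no member was called without control replicate 1 or 2 or any of the day 14 replicates 1 to 3. At day 14 against day 7, H2-K1, H2-D1, H2-Q7, B2m and Psmb8 were called in all 19 other settings in which the fit was repeated, each library left out in turn among them.

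**Figure D3:**
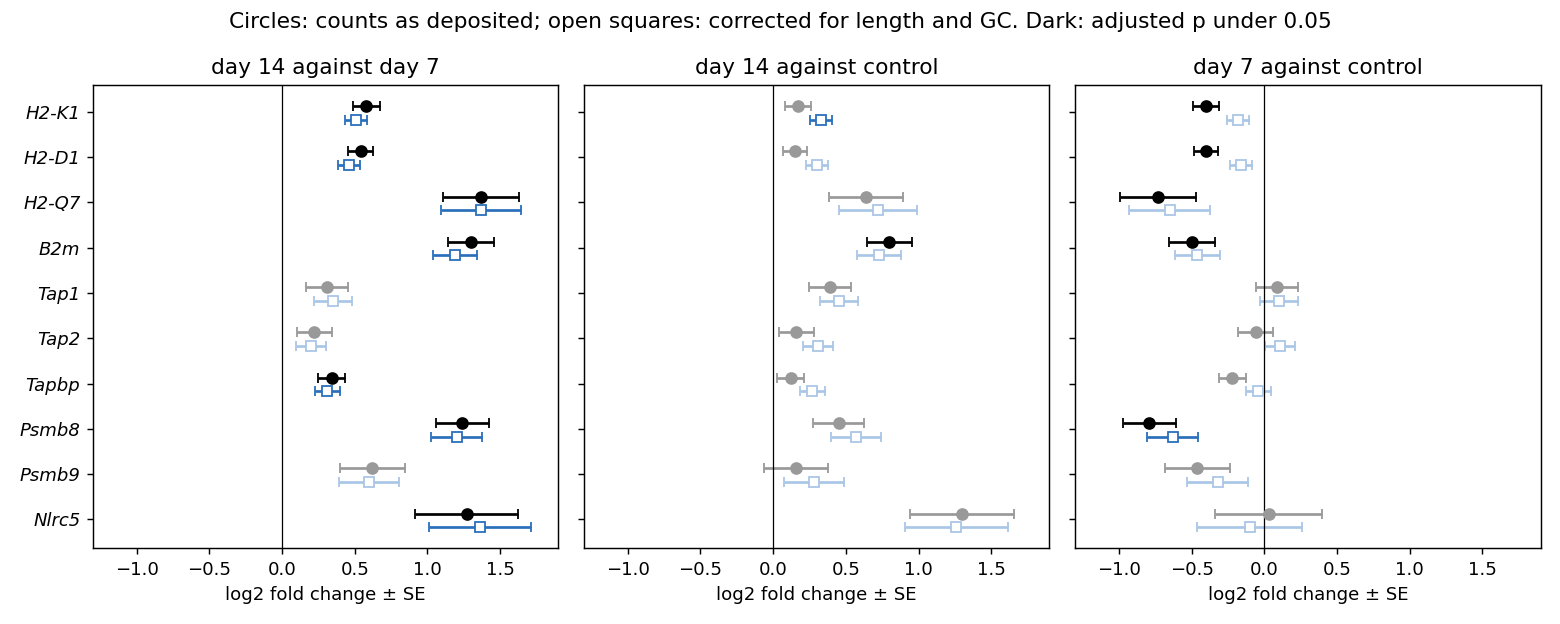
Log2 fold change with its SE for each gene in each comparison, from the deposited counts (circles) and after the length and GC correction (open squares), dark where the adjusted p was under 0.05. At day 7 against control the squares lie nearer 0 than the circles for H2-K1 and H2-D1, while at day 14 against day 7 both kinds of symbol lie above 0 for every gene.

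The constitutive partners of the immunoproteasome subunits were also followed, so that a change in subunit composition could be set apart from a change in all subunits. All 14 genes of the constitutive 20S core fell at day 7 against control, with a median of -0.53, where 14.8% of all genes fell. At day 14 against day 7, 4 of the 14 rose, with a median of 0.33, where 3.72% of all genes rose. Psmb5 had 66.0, 72.5 and 62.9 CPM at day 14, 44.2, 51.5 and 55.9 CPM at day 7 and 81.5, 93.9 and 67.1 CPM in controls. It fell by 0.68 (log2, SE 0.122, adjusted p = 0.000475) at day 7 against control, Psmb6 fell by 0.70 (SE 0.0988, adjusted p = 6.3e-05) and Psmb7 by 0.69 (SE 0.12, adjusted p = 0.000373). In the deposited counts the fall of Psmb8 at day 7 was thus accompanied by a fall of similar size in its partner. After the length and GC correction 10 of the 14 core genes were called lower, where 11.1% of all genes were. Psmb5 was not among the 10 (log2 fold change -0.27, adjusted p = 0.0975). Psmb8 kept its call after the correction, at -0.63, and the difference between it and Psmb5 was not tested. Between day 14 and control no core gene was called by edgeR, 8 had an unadjusted p under 0.05, all lower, and DESeq2 and limma-voom called 1 and 4. Without control replicate 3, edgeR called 6 core genes lower, where it called 835 of all genes lower.

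As a share of Psmb5 per exon length, Psmb8 stood at 5.81%, 3.88% and 6.25% at day 14, at 3.40%, 2.78% and 2.76% at day 7 and at 3.01%, 3.00% and 3.70% in controls. Every day 14 library exceeded every other library, while day 7 and control overlapped. The log2 difference was 0.69 for day 14 over control, 0.81 for day 14 over day 7 and -0.12 for day 7 over control, with exact two-sided permutation p-values of 0.1, 0.1 and 0.5. With 3 libraries against 3, 0.1 is the smallest p such a test can give, and over the 9 ratio tests the adjusted values were 0.3, 0.3 and 0.562. All ratios were taken without the length and GC correction, and Psmb5 has 899 exon bases against 3381 for Psmb8. The part of the length trend in these differences was not tested. The size of a share also depends on the exon lengths used.

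Psmb9 stood at 7.02% ± 1.21 of Psmb6 at day 14, 5.87% ± 1.73 at day 7 and 4.90% ± 0.628 in controls (SD, n = 3 each). Its day 14 libraries all exceeded the controls, by 0.51 on the log2 scale (exact permutation p = 0.1, adjusted p = 0.3), and overlapped those of day 7. Psmb10, the third inducible subunit and the partner of Psmb7, stood at 56.7% ± 10.2 of it at day 14, 48.2% ± 7.46 at day 7 and 49.9% ± 8.08 in controls, with all groups overlapping. Psmb10 as such fell by 0.74 (log2, SE 0.176, adjusted p = 0.00379) at day 7 against control and rose by 0.72 (SE 0.175, adjusted p = 0.0186) at day 14 against day 7. The day 7 call was lost after the length and GC correction (-0.35, adjusted p = 0.138). With the exon lengths used, its share of the partner exceeded the shares of the other 2 inducible subunits in every library.

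**Figure D4:**
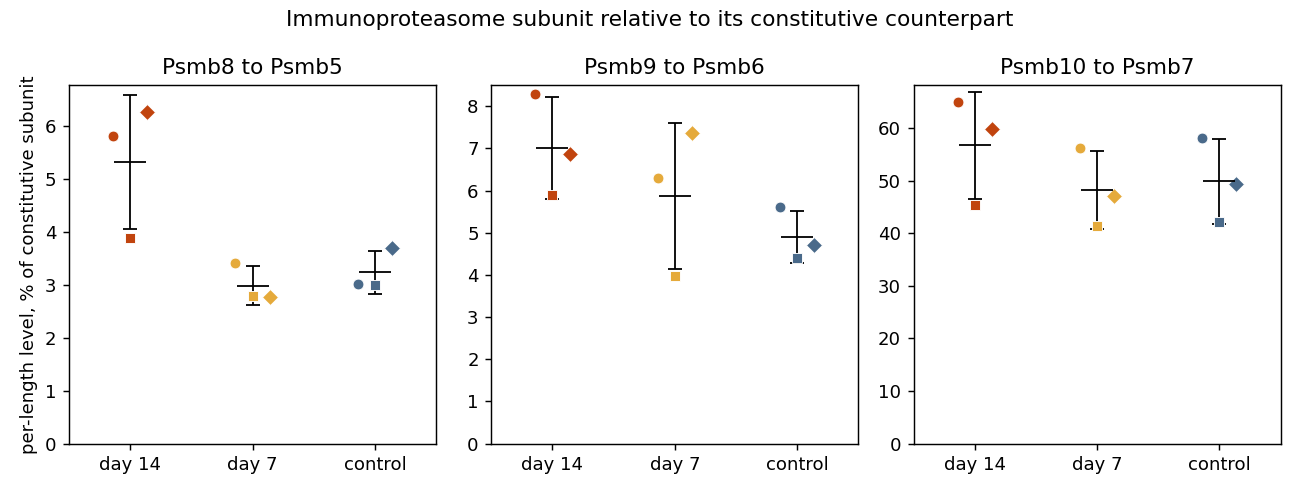
Level per exon length of Psmb8, Psmb9 and Psmb10 as a percentage of Psmb5, Psmb6 and Psmb7 in each library (vertical axes from 0), with the mean and SD in black. Psmb8 stands at 3.88% to 6.25% of Psmb5 at day 14 and at no more than 3.70% in the other 6 libraries.

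Other genes of the pathway were read from lists. Among 15 other class I and class I-like chains, 11 passed the filter, and H2-Q1 was listed at 0 counts in every library. Of the 11, 2 fell and 1 rose at day 7 against control (median -0.29), where 14.8% of all genes were called lower and 15.8% higher. At day 14 against day 7, 3 rose (median 0.38), where 3.72% of all genes did. H2-T23, the Qa-1 heavy chain that presents leader peptides of other class I chains, had 386, 349 and 363 CPM at day 14, 254, 255 and 260 CPM at day 7 and 429, 369 and 321 CPM in controls. It fell by 0.54 (log2, SE 0.0988, adjusted p = 0.000522) at day 7 against control, also after the length and GC correction (-0.31, adjusted p = 0.006), and rose by 0.51 (SE 0.0987, adjusted p = 0.00492) at day 14 against day 7. H2-Q6 fell at day 7 against control by 0.69 (SE 0.25, adjusted p = 0.0459), a call lost after the correction (-0.37, adjusted p = 0.373). H2-Q6 and H2-T22 rose at day 14 against day 7 by 1.26 (SE 0.247) and 0.38 (SE 0.114) on the log2 scale. Mr1, which presents vitamin B metabolites to mucosal-associated invariant T cells, went the other way at day 7, higher than control by 0.59 (SE 0.159, adjusted p = 0.0085), a call it lost after the correction (0.35, adjusted p = 0.0857).

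Of 9 other genes of peptide supply and loading, 5 fell and 2 rose at day 7 against control (median -0.32). Over all genes 14.8% were called lower there and 15.8% higher. Without control replicate 3, 6 of the 9 fell and 2 rose there, where 2590 and 2724 of all genes did. At day 14 against day 7, 3 of the 9 rose (median 0.23), where 3.72% of all genes were called higher. Calr, the chaperone calreticulin, fell by 0.68 (log2, SE 0.094, adjusted p = 5.7e-05) at day 7 against control and rose by 0.49 (SE 0.0938, adjusted p = 0.00507) at day 14 against day 7. The proteasome activator subunits Psme1 and Psme2 fell by 0.50 (SE 0.104) and 0.49 (SE 0.112) at day 7, and Tapbpl, a tapasin relative that edits peptides, fell by 0.32 (SE 0.105). Erap1 and Lnpep, aminopeptidases that trim peptides, rose by 0.47 (SE 0.147) and 0.66 (SE 0.175). After the length and GC correction Calr was the only gene of the 9 called at day 7 (-0.54, adjusted p = 0.000123), with Erap1 at 0.08 and Lnpep at 0.16. Canx and Pdia3, chaperones that assist heavy chain folding, did not pass the test at day 7, at 0.08 (SE 0.116) and -0.27 (SE 0.105).

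Of 24 regulators of the class I genes, 5 rose and 4 fell at day 7 against control. Over all genes 15.8% were called higher there and 14.8% lower. At day 14 against day 7, 2 regulators rose and 1 fell, where 3.72% and 2.87% of all genes did. In edgeR's test of day 14 against control none passed, although 7 had an unadjusted p under 0.05, and the calls were 1 by DESeq2 and 2 by limma-voom. Without control replicate 3 edgeR called 2 higher there, where 1102 of all genes were. At day 7 against control 5 then rose and 6 fell, where 2724 and 2590 of all genes did. Irf8, an interferon regulatory factor of myeloid cells, fell by 0.53 (SE 0.124, adjusted p = 0.00339) at day 7 against control and rose by 0.53 (SE 0.123, adjusted p = 0.0152) at day 14 against day 7.

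Rfx5, the DNA-binding subunit of the complex that recruits NLRC5 to the X box, moved in the opposite direction to the heavy chains. It had 13.3, 9.24 and 13.3 CPM at day 14, 17.8, 19 and 17 CPM at day 7 and 11.5, 13 and 14.1 CPM in controls. Rfx5 rose by 0.48 (log2, SE 0.162, adjusted p = 0.0315) at day 7 against control and fell by 0.58 (SE 0.162, adjusted p = 0.0363) at day 14 against day 7. The first of these calls was lost after the length and GC correction (0.41, adjusted p = 0.0648). Relb, an NF-kB subunit, fell by 1.11 (SE 0.209, adjusted p = 0.000703) at day 7 against control, and Rela, another subunit, fell by 0.33 (SE 0.109, adjusted p = 0.0284). Nfkb1, a further subunit, rose by 0.40 (SE 0.0965, adjusted p = 0.00403). After the correction Relb kept its call (-0.95, adjusted p = 0.00235), and Rela (-0.09, adjusted p = 0.558) and Nfkb1 (0.18, adjusted p = 0.174) did not. Irf1, an interferon-induced activator of class I genes, was at 0.26 (SE 0.116, adjusted p = 0.176) at day 14 against day 7, and Ciita, the class II counterpart of Nlrc5, was at 0.71 (SE 0.354, adjusted p = 0.244).

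The genes with TGACG placed 24 or 25 bases before ATTGG were read as well. Of the 38 genes, 29 were tested. H2-K1, H2-D1, H2-Q7 and B2m were the genes among the 29 called higher at day 14 against day 7. None of the other genes among the 29 was called higher, and 1, Tecpr1, was called lower. Over all genes tested, 3.72% were called higher and 2.87% lower in that comparison. H2-M3 was at 0.55 (log2, SE 0.218, adjusted p = 0.134), with 7.71, 7.60 and 8.51 CPM at day 14 above 4.45, 5.16 and 6.66 CPM at day 7. At day 7 against control H2-K1, H2-D1, H2-Q7 and B2m were called lower, and so were Tesk1, Znrd1 and Znrd1as. Slc8a3 and Tecpr1 were called higher. Over all genes tested, 14.8% were called lower and 15.8% higher there. The spacing was read off the promoters of H2-K1, H2-D1, H2-Q7 and B2m, which were shown because of their calls. Neither the presence of these genes in this set nor their calls within it are therefore a result about the spacing.

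Interferon-gamma-inducible genes were taken as a separate list. Of 22 such genes 19 were tested, and at day 7 against control their median was -0.02. None was called then by edgeR, DESeq2 or limma-voom, and none had an unadjusted p under 0.05. The difference between this list and the class I genes was not tested. For day 14 over control 3 rose, where 1.13% of all genes did, with a median of 0.72 against 0.01 over all genes. Zbp1, a sensor of nucleic acids, had 13, 6.43 and 8.56 CPM at day 14, 3.96, 2.36 and 4.41 CPM at day 7 and 3.96, 3.71 and 4.81 CPM in controls, and Gbp3, a guanylate-binding GTPase, had 18.2, 8.18 and 12 CPM, 6.90, 5.22 and 6.18 CPM, and 6.40, 6.41 and 6.0 CPM in the same order of groups. Zbp1 rose by 1.16 (log2, SE 0.278, adjusted p = 0.0393), Gbp3 by 1.02 (SE 0.237, adjusted p = 0.035) and the GTPase Irgm1 by 0.55 (SE 0.137, adjusted p = 0.046). Zbp1 and Gbp3 also rose at day 14 against day 7. Without control replicate 3, 7 of the 19 were called higher at day 14 against control, and 1 at day 7, where 1102 and 2724 of all genes were. After the length and GC correction Irgm1 lost its call (0.43, adjusted p = 0.119). Ifng, which encodes interferon-gamma itself, had 0 counts in all 9 libraries, which allows up to 0.159 to 0.202 CPM in a library, the value of 3 counts there, for counting error only.

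**Figure D5:**
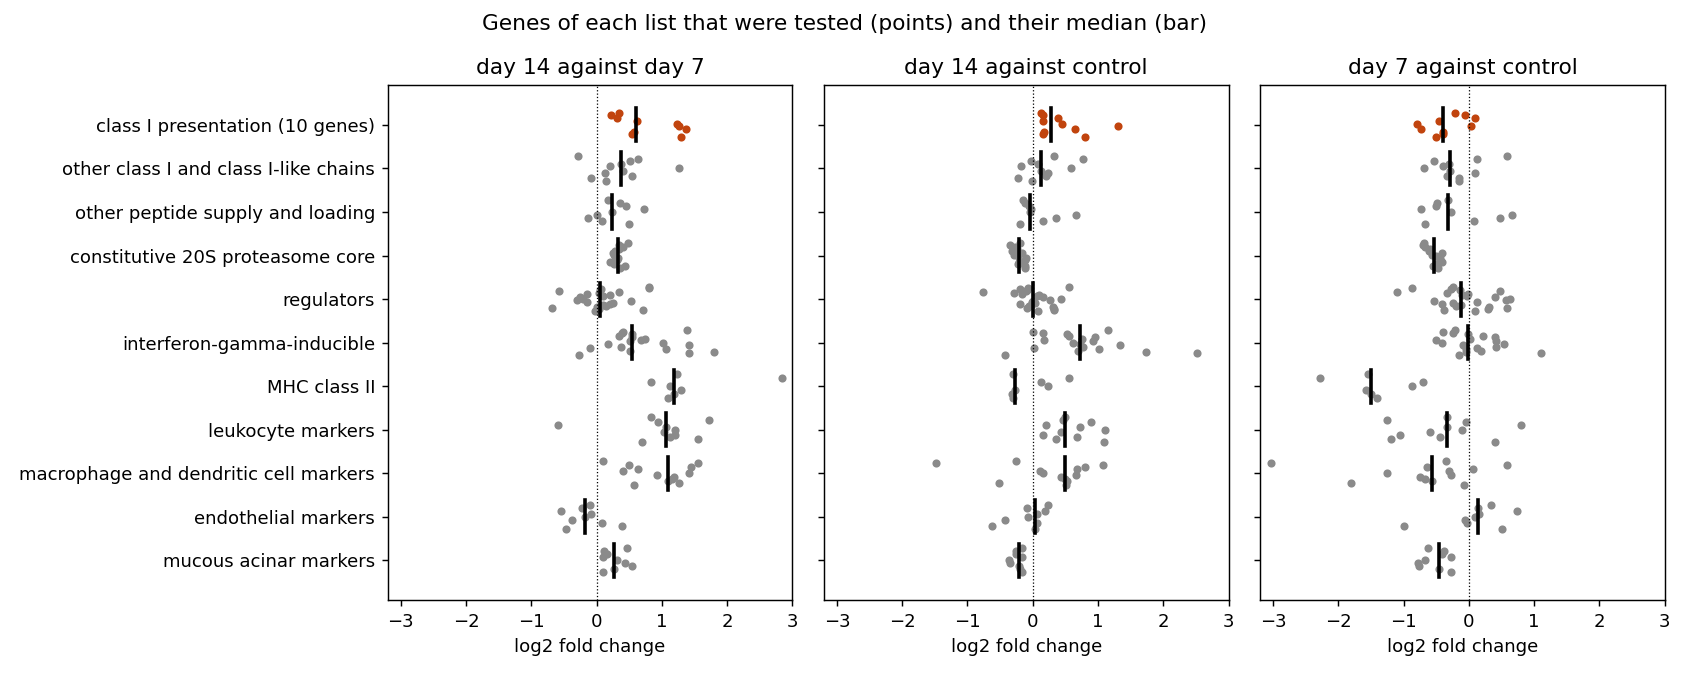
Log2 fold changes of the tested genes of each list (points) and their median (bar) in the 3 comparisons. The 14 constitutive 20S genes cluster at a median of -0.53 at day 7 against control, and the 19 interferon-gamma-inducible genes have a median of -0.02 there and of 0.72 at day 14 against control.

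Markers of immune cells, which carry abundant class I molecules, were read beside these results. At day 14 against day 7, 9 of 11 leukocyte markers rose and 1 fell, and 5 of 13 tested macrophage and dendritic cell markers rose, where 3.72% of all genes were called higher. At day 7 against control, 3 of 11 leukocyte markers and 4 of 13 macrophage and dendritic cell markers fell, where 14.8% of all genes were called lower. After the length and GC correction these counts were 4 and 2, where 11.1% of all genes were called lower. Lcp1, an actin-bundling protein on the leukocyte list, took the opposite course to most of the list, higher by 0.80 (log2, SE 0.0943) at day 7 against control and lower by 0.59 (SE 0.0939) at day 14 against day 7. The 11 leukocyte markers summed to 391 to 403 CPM at day 14, 449 to 505 CPM at day 7 and 293 to 352 CPM in controls. The other 10, a sum taken after Lcp1's values were seen, gave 108 to 122 CPM, 42.6 to 61.2 CPM and 72.6 to 78.2 CPM in that order of groups. Ptprc (CD45), the defining marker of the list, had 11.5, 10.2 and 9.32 CPM at day 14, 5.92, 5.16 and 5.11 CPM at day 7 and 3.96, 5.19 and 7.41 CPM in controls, so that day 7 overlapped controls. After the length and GC correction Ptprc was called lower at day 7, by a log2 fold change of -0.59 (adjusted p = 0.0408).

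The macrophage and dendritic cell markers summed to 281 to 355 CPM at day 14, 120 to 180 CPM at day 7 and 213 to 245 CPM in controls. Among the class II genes, 6 of 7 tested fell at day 7 against control (median -1.50), where 14.8% of all genes did. At day 14 against day 7, 6 rose (median 1.18), where 3.72% of all genes did. After the length and GC correction 5 fell and 6 rose, where 11.1% and 4.21% of all genes did. H2-Ab1, a class II beta chain, fell by 1.57 (log2, adjusted p = 9.28e-08) at day 7 and rose by 1.29 (adjusted p = 3.85e-06) at day 14 against day 7. Markers of T and natural killer cells were near the detection floor, summing to 6.11 to 12.6 CPM at day 14, 3.90 to 4.24 CPM at day 7 and 7.02 to 7.75 CPM in controls, and 7 of 14 were tested. Of the 7, 1 was called higher at day 14 against day 7 (median 1.28), where 3.72% of all genes were. At either time against control edgeR called none of the 7. Cd3d had 0 counts in 6 of 9 libraries and Cd8b1 in 6 of 9. B cell markers summed to 0.488 to 1.75 CPM at day 14, 0.484 to 0.659 CPM at day 7 and 0.61 to 1.47 CPM in controls, and none of the 4 passed the filter. Of the 9 endothelial markers 2 were higher at day 7 against control, where 15.8% of all genes were, and 1 after the length and GC correction. None was called at day 14 against day 7 by edgeR, DESeq2 or limma-voom (2 were lower at an unadjusted p under 0.05). Of the 9 mucous acinar markers, all fell at day 7 against control (median -0.46), where 14.8% of all genes did. At day 14 against day 7, 3 rose, where 3.72% of all genes did. After the length and GC correction 6 fell and 1 rose in these comparisons, where 11.1% and 4.21% of all genes did. At day 14 against control edgeR called 0 of the 9 lower, and 6 without control replicate 3, where 97 and 835 of all genes were. The part of each cell type in the class I values was not tested.

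The 10 genes were also compared by their course over the 9 libraries. The mean z-score of their log2 CPM was 1.56, 0.28 and 1.10 in the day 14 libraries, -0.97, -1.35 and -0.55 at day 7 and 0.11, -0.06 and -0.13 in controls. Day 14 replicate 2 was thus the lowest of its group and lay closer to the controls than the other 2. Pearson's r of a single gene with this mean was between 0.721 for Nlrc5 and 0.951 for H2-Q7, and between 2 genes it was between 0.373 for Psmb9 with Nlrc5 and 0.992 for H2-K1 with H2-D1. The 9 libraries fall into 3 groups and the genes share the libraries' depth and scaling, so these are descriptions.

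Outside the list, the 6 genes whose log2 CPM followed this mean most closely, among genes of at least 5 CPM, were Ifitm3 (r = 0.978), Tyrobp (0.971), Asic1 (0.966), Lgals9 (0.966), Irf7 (0.957) and Fcrls (0.947). Ifitm3, an interferon-induced membrane protein that restricts virus entry, averaged 64.5 ± 6.43 CPM at day 14, 34.1 ± 3.78 CPM at day 7 and 47.2 ± 2.06 CPM in controls (SD, n = 3 each). Tyrobp, a signalling adaptor of myeloid and natural killer cells that is also on the leukocyte list, averaged 10.4 ± 1.44, 5.86 ± 0.986 and 7.35 ± 0.768 CPM in that order. Irf7, a transcription factor of the type I interferon response, averaged 42.2 ± 16.2 CPM at day 14, 13.6 ± 5.2 CPM at day 7 and 17.5 ± 2.74 CPM in controls. Asic1 averaged 8.93 ± 1.07, 6.11 ± 0.757 and 7.9 ± 0.421 CPM in that order. Lgals9 averaged 16.9 ± 4.78, 7.75 ± 2.24 and 10.4 ± 0.59 CPM, and Fcrls 11.9 ± 2.84, 3.96 ± 0.783 and 7.29 ± 0.592 CPM. All 6 were picked for following the mean of the 10 genes. Their order, with day 14 highest and day 7 lowest, is therefore not a result.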

How the data were processed

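Raw read counts per gene, in 1 file a library, were deposited by the authors; the submitters' processing notes name STAR, featureCounts and DESeq2 with the mm10 build. For versions, annotation, settings and strandedness the sources used here give nothing. Symbols were found for 54409 of 54532 identifiers, and gene models came from GENCODE M21. The 15348 genes passing filterByExpr (39184 did not) were fitted with edgeR 4.0.16 (R 4.3.3; TMM scaling, quasi-likelihood F test, robust) in 1 model of 9 libraries and 3 groups. P-values were adjusted (Benjamini-Hochberg) over all genes tested, with calls at 0.05; an SE is the log2 fold change over the square root of F. Other fits used DESeq2 1.42.0, limma-voom (limma 3.58.1), other scaling and filters, left-out libraries, the replicate block, and mgcv 1.9.3 offsets for length and GC content, for which 16 genes had no length. The fits were tested on simulated data. The coefficient of variation between replicates was 16.1%. Totals of 15962399 to 19441239 counts put the floor of 3 counts at 0.159 to 0.202 CPM, counting error only.

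The 10 genes, the lists and the motifs were chosen with earlier results of these data known. Named from each list were up to 4 genes with the smallest p per comparison and a set of pathway genes whatever their result. Tecpr1, Slc8a3, Tesk1, Znrd1 and Znrd1as were named after their values were seen. CPM are counts scaled by TMM to the library total, and levels between genes are per kilobase of union exon length. Ratios were compared by exact permutation tests (scipy 1.17.1). The values of 1 regulator are not reported here.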

Additional observations from a re-analysis of the deposited data

Results flagged for a closer look

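The values relative to controls differed between the 2 times for 7 of the 10 genes, by edgeR's quasi-likelihood test of day 14 against day 7 with Benjamini-Hochberg adjustment. The shared controls cancel in it, so these are the day 14 against day 7 calls given above. With controls of no stated day, time after radiation cannot be told apart from age or day of collection. The difference between the day 14 and the day 7 value was 1.37 on the log2 scale for H2-Q7 (0.64 at day 14 and -0.73 at day 7, adjusted p = 0.0072), 1.30 for B2m (0.80 and -0.50, adjusted p = 0.000589) and 1.24 for Psmb8 (0.45 and -0.79, adjusted p = 0.000463). For Nlrc5 it was 1.27, with 1.30 at day 14 and 0.03 at day 7 (adjusted p = 0.0371). For the more abundant heavy chains it was 0.58 for H2-K1 (0.17 and -0.40, adjusted p = 0.000931) and 0.54 for H2-D1 (0.15 and -0.40, adjusted p = 0.000829), and for Tapbp it was 0.34 (0.12 and -0.22, adjusted p = 0.0314). B2m was alone in being called in opposite directions against controls at the 2 times. Both calls were lost after the length and GC correction. The day 14 call was also lost with the replicate block and without control replicate 1 or 2 or any day 14 replicate. The day 7 call was also lost without control replicate 2 or 3 or day 7 replicate 2, and with scaling without the 20 most abundant genes. All 3 libraries a group showed the direction of day 14 above day 7 in each of the 7 genes. With 3 libraries a group, single genes were not searched for a library far from the others.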

How the results depend on the processing

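The 19 refits and a stricter threshold gave the following counts, where they differed by over 1.5 times from 5 members lower at day 7, 1 and 7 members higher at day 14 than in controls and at day 7, 2419 and 2273 genes higher and lower at day 7, 173 and 97 for day 14 over control, 571 and 440 for day 14 over day 7, and, on the pathway lists, 8 and 25, 3 and 0, and 14 and 1. Scaling without the 20 most abundant genes left 3 members lower at day 7, 319 genes and 5 list genes higher at day 14 against control, and 3 list genes lower at day 14 against day 7. Limma-voom gave 3 members, 967 genes and 10 list genes higher and 586 genes and 4 list genes lower for day 14 over control, and 941 genes and 24 list genes higher and 827 genes and 3 list genes lower at day 14 against day 7. Without a filter, 3 members, 925 genes and 14 list genes were higher and 375 genes and 2 list genes lower for day 14 over control, and 22 list genes higher and 2 lower at day 14 against day 7. DESeq2 gave 2 members, 591 genes and 6 list genes higher and 451 genes and 2 list genes lower at day 14 against control, and 3 list genes lower at day 14 against day 7. Fits of only 6 libraries gave 102 genes higher, 55 lower and 1 list gene higher for day 14 over control, and 723 genes and 2 list genes lower at day 14 against day 7.

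The length and GC correction gave 1 member lower, 1417 genes higher, and 2 list genes higher and 15 lower at day 7, and 76 genes higher, 44 lower and 1 list gene lower at day 14 against control. The labels state no pairing of same-numbered replicates, and the correlations of their deviations were -0.112 to 0.037. Whether such replicates share a batch cannot be told from these values. With the replicate block, 0 members, 81 genes and 1 list gene were higher and 32 genes lower at day 14 against control, and 0 list genes lower at day 14 against day 7. The replicate block with the length and GC correction gave 2 members lower, 1338 genes higher, and 2 list genes higher and 16 lower at day 7, 0 members, 41 genes and 1 list gene higher and 12 genes lower at day 14 against control, and 0 list genes lower at day 14 against day 7. At an adjusted p under 0.01, 3 members were lower, 1295 genes higher, 1336 lower and 4 list genes higher at day 7, 0 members, 10 genes and 0 list genes higher and 1 gene lower for day 14 over control, and 146 genes and 4 list genes higher and 118 genes and 0 list genes lower at day 14 against day 7.

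With 1 library left out, 3 to 6 members were lower at day 7, 0 to 2 higher for day 14 over control and 5 to 7 higher at day 14 against day 7. Genes numbered 1577 to 2724 higher and 1513 to 2590 lower at day 7, 5 to 1102 and 6 to 835 for day 14 over control, and 208 to 739 and 119 to 676 at day 14 against day 7. List genes numbered 4 to 9 higher and 21 to 28 lower at day 7, 0 to 13 and 0 to 6 for day 14 over control, and 5 to 18 and 0 to 3 at day 14 against day 7. Among values at day 7 against control that did not pass the test, the sign turned with a library left out for Tap1 (-0.05 to 0.18), Tap2 (-0.14 to 0.03), Nlrc5 (-0.30 to 0.35), Canx (-0.05 to 0.17) and the Psmb10 to Psmb7 ratio (-0.16 to 0.07). Tap2 was at 0.00 without the 20 most abundant genes, and the length and GC correction put Tap2 at 0.11, Nlrc5 at -0.10 and Canx at -0.16, or with the block at 0.10, -0.09 and -0.15. The cause of these shifts was not tested. Precision is limited by 3 libraries a group and, for Nlrc5, by 20 to 132 counts a library.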
